A study of Sus scrofa with 6 samples.

Results

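HBB, HP, CP, TF, TFRC and FTL are 6 genes that carry, store or clear iron, copper and haemoglobin, among 4122 genes listed in expression tables of pig lymphoid tissue. They were picked by name, after their levels in these libraries were known to differ between genotypes, so the differences below are descriptions. The libraries came from lymph node, spleen and thymus of pigs at 3 months of age, either carrying a biallelic RAG2 knockout or wild type, the wild-type pigs being littermates of the knockouts. Each of the 6 combinations of tissue and genotype is 1 library of total RNA, so the differences between genotypes have no replicates behind them. The labels give neither the number of pigs nor whether the 3 tissues of a genotype came from the same animal, and the series title describes the edit as the deletion of a single amino acid.

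Iron travels in plasma bound to transferrin (TF), enters cells through the transferrin receptor (TFRC) and is kept in ferritin, a shell built of light (FTL) and heavy (FTH1) chains. Iron regulatory proteins bind hairpins in the ferritin and TFRC messages and adjust them in opposite directions, ferritin mainly at translation and TFRC mainly through the stability of its message. HBB encodes the beta chain of haemoglobin, and haptoglobin (HP) binds haemoglobin that leaks from red cells. Ceruloplasmin (CP) carries copper in plasma and oxidises iron so that transferrin can take it up. The liver secretes most HP, CP and TF, and the spleen recycles iron from old red cells. RAG2 is a subunit of the recombinase with which developing lymphocytes join the segments of their antigen receptor genes.

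Levels are in FPKM, that is, fragments per kilobase of transcript and per unit of sequencing depth. A gene counts as measured in a tissue at 1 FPKM or more in at least 1 of the 2 libraries. For log2 ratios of knockout over wild type 1 FPKM was added to both libraries, and a gene is called higher from 1 upward and lower from -1 downward. Folds compare the scaled fragments of the libraries, and their 95% intervals (Clopper-Pearson) reflect counting error alone. In each pair of values the wild-type library comes first. The tables were normalised separately for each tissue, so levels in different tissues are set side by side without a test.

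Fragments assigned to the listed genes numbered 1922562 to 2541724 per library. The thymic genes CCL25 and PTCRA stood at 302 FPKM or more in both thymus libraries and at 1.04 FPKM or less in the others. CCL21 and the lymphatic endothelial factor PROX1 were highest in the lymph node libraries, and no marker of spleen was checked. The B-cell gene MS4A1 stood at 356 and 0.887 FPKM in lymph node and at 135 and 0.257 FPKM in spleen. RAG2 stood at 606 and 1072 FPKM in thymus, and a transcript level does not check the genotype labels.

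In the knockout lymph node HBB, HP, CP and FTL were higher and TFRC was lower, 4 and 1 of the 6 genes, all of which reached the minimum. As background, 15.3% of the 2910 genes measured there were called higher and 10.3% lower. In spleen CP and FTL were higher and HBB and TF lower, 2 and 2 of 6, where 8.88% of 2849 genes were higher and 10.0% lower. HBB, HP and FTL were higher in the knockout thymus, 3 of the 4 genes measured there, and 0 were lower. Of 2908 genes in thymus 15.2% were higher and 10.9% lower. CP and TF did not reach the minimum in thymus. CP passed it in lymph node through the knockout library alone and TF through the wild-type library alone. FTL was the gene called in the same direction in all 3 tissues. The median log2 ratio over the measured genes of the set was 2.19 in lymph node, -0.29 in spleen and 1.77 in thymus, against -0.00456, -0.0159 and -4.72e-05 over all measured genes.

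**Figure D1:**
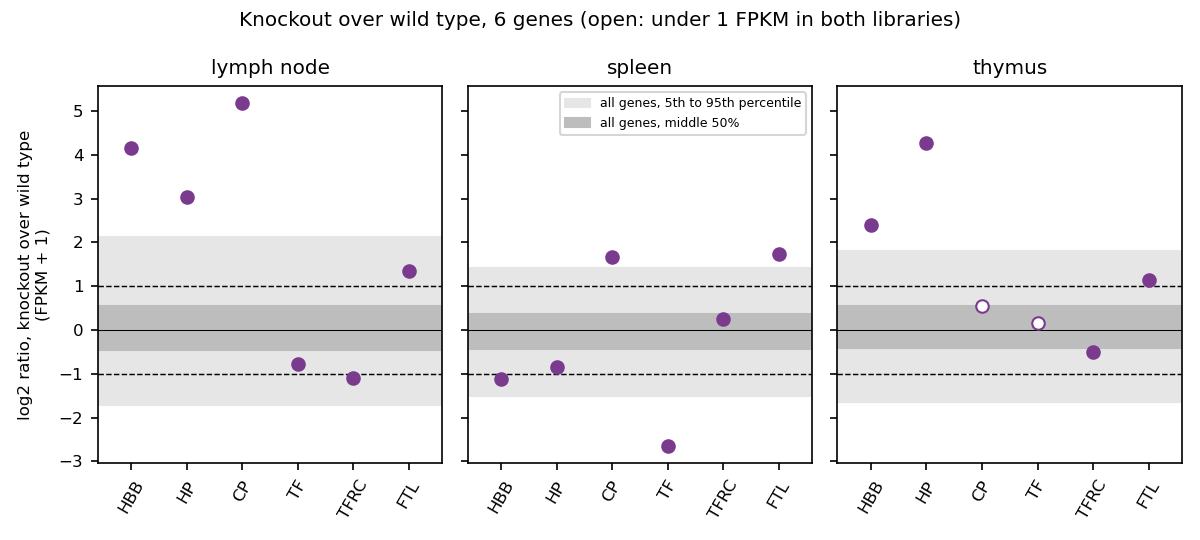
Log2 ratios, knockout over wild type (FPKM + 1, vertical axis), for the 6 genes in lymph node, spleen and thymus, 1 library per genotype. Dark and light bands hold the middle 50% and the 5th to 95th percentile of all measured genes, dashed lines mark the call threshold of 1, and open points (CP and TF in thymus) lie under 1 FPKM in both libraries. HBB and HP lie above the light band in lymph node and thymus and below 0 in spleen.

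HBB, the red-cell gene, stood at 376 and 6738 FPKM in lymph node, 41406 and 18970.2 FPKM in spleen, and 912 and 4782 FPKM in thymus. Spleen was thus highest in either genotype, and the order was spleen wild type, spleen knockout, lymph node knockout, thymus knockout, thymus wild type and lymph node wild type, with no overlap of counting intervals between neighbours. The knockout level was 18.3-fold higher in lymph node (16.4 to 20.4) and 5.24-fold higher in thymus (4.88 to 5.64), with log2 ratios of 4.16 and 2.39. In spleen it was 2.12-fold lower (2.09 to 2.16; log2 ratio -1.13). The highest and lowest of the 6 libraries were 110-fold apart, and the 3 knockout libraries lay between 4782 and 18970.2 FPKM. HBB held 1.87% of the fragments of listed genes in wild-type spleen (exact binomial interval 1.85 to 1.89%) and 0.855% in knockout spleen (0.843 to 0.866%). By FPKM it ranked 2 of all listed genes in wild-type spleen, 5 in knockout spleen, 14 in knockout lymph node and 242 in wild-type lymph node.

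**Figure D2:**
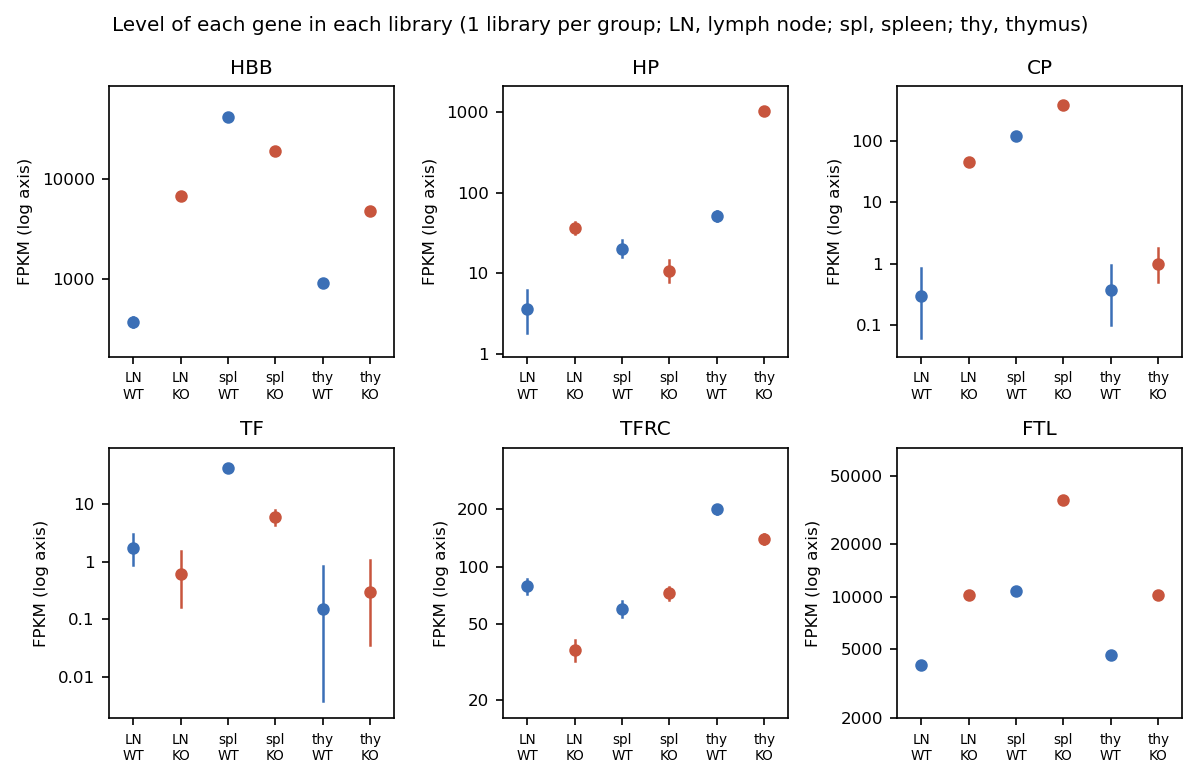
FPKM (log axes, each panel with its own range) of HBB, HP, CP, TF, TFRC and FTL in the 6 libraries, wild type in blue and knockout in red. Points are single libraries and bars the 95% Poisson interval of the fragment count, hidden by the point where narrow; HBB and TF peak in wild-type spleen, CP and FTL in knockout spleen, HP in knockout thymus and TFRC in wild-type thymus.

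The embryonic globin HBE1, which neighbours HBB on chromosome 9 (HBE1 at 4818206 to 4820243, HBB at 4800683 to 4801941 in Sscrofa11.1), had 0 and 6 fragments in lymph node, 9 and 14 in spleen and 2 and 0 in thymus. The 2 genes are related copies, and how the authors' counting treated shared fragments is not given in the sources used here. In these bulk samples more red cells and more HBB message per cell cannot be told apart.

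The regulators of red-cell genes moved differently from HBB in spleen. KLF1, a transcription factor that switches on adult globin, had 5 and 46 fragments there and was 7.88-fold higher (3.14 to 25.4). GATA1, its upstream partner, was 7.19-fold higher (2.85 to 23.3), and NFE2, a globin enhancer factor also used by megakaryocytes, 5.44-fold higher (3.08 to 10.4). NFE2 was also higher in lymph node (1 and 26 fragments) and thymus (5 and 47 fragments), together with HBB. GATA1 was not called in lymph node (12 and 7 fragments, log2 ratio -0.60), and KLF1 had 1 and 3 fragments there, under the minimum. In thymus GATA1 was not called (12 and 25 fragments) and KLF1 was higher on 0 and 7 fragments. The 5 erythroid genes other than HBB and TFRC summed to 10.01 and 21.8 FPKM in lymph node, 35.9 and 75.2 FPKM in spleen, and 6.69 and 19.8 FPKM in thymus. HBE1 was at 0 in wild-type lymph node and knockout thymus, and KLF1 in wild-type thymus. Counting HBB and TFRC, the erythroid list was higher in 3 of 6 cases and lower in 1 in lymph node. The counts were 3 and 1 of 7 in spleen, and 4 and 1 of 7 in thymus. The lower genes were TFRC in lymph node, HBB in spleen and HBE1 in thymus, the last on 2 and 0 fragments. Over all measured genes 15.3% were called higher and 10.3% lower in lymph node. These shares were 8.88 and 10.0% in spleen, and 15.2 and 10.9% in thymus. Medians of the erythroid list were 1.34, 0.39 and 1.07, and 1.34, 2.12 and 1.07 without HBB and TFRC. The part of red-cell number in the HBB values was not tested.

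HP, the haemoglobin scavenger, lies on chromosome 6 (14980382 to 14985245). It stood at 3.54 and 36.5 FPKM in lymph node, 20.1 and 10.7 FPKM in spleen, and 51.7 and 1020.2 FPKM in thymus. Knockout thymus was the highest library and wild-type lymph node the lowest, 288-fold apart, and no neighbours in the order had overlapping counting intervals. In thymus the knockout level of HP was 19.7-fold higher (17.0 to 23.0; 184 and 3717 fragments). It was 10.4-fold higher in the knockout lymph node (5.74 to 20.6; 12 and 130 fragments). Among all measured genes its log2 ratio ranked 16 from the highest in thymus (4.28) and 78 in lymph node (3.05). In spleen the log2 ratio of -0.85 was short of a call, with a fold of 1.86 lower (1.26 to 2.77). Relative to HBB in the same library, the HP level was 0.0567 (0.0481 to 0.0666) in wild-type and 0.213 (0.204 to 0.223) in knockout thymus. In lymph node the same ratio was 0.00941 (0.00482 to 0.0167) and 0.00541 (0.00452 to 0.00644), intervals that overlap. In spleen it was 4.86e-04 and 5.67e-04, also overlapping.

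Neutrophils store haptoglobin in their granules, and the neutrophil list was higher in 9 of 11 cases in the knockout thymus (median 3.84), with 0 lower. Lactoferrin LTF, an iron-binding granule protein related to transferrin, had 2 and 559 fragments there and was 273-fold higher (75.2 to 2259). The antimicrobial peptide gene PR39 had 2 and 108 fragments. The list was higher in 7 of 9 cases and lower in 1 in lymph node (median 2.41), led by RETN with 0 and 68 fragments and S100A12 with 2 and 106. In spleen it was higher in 9 of 11 and lower in 2 (median 2.26), led by S100A9 with 7 and 811 fragments. The lower genes were MMP9 in lymph node (190 and 19 fragments), and FCN1 (659 and 299) and LCN2 (83 and 29) in spleen. LTF had 5 and 5 fragments in lymph node and 19 and 57 in spleen. The list summed to 85.4 and 634 FPKM in lymph node, 340.3 and 1916 FPKM in spleen, and 172 and 2549 FPKM in thymus. Its members at 0 were RETN, PR39, NPG1 and NPG4 in wild-type lymph node, NPG1 in the knockout lymph node and RETN in wild-type thymus. In knockout spleen S100A8, S100A9 and S100A12 (721, 484 and 493 FPKM) gave most of the sum. In wild-type spleen FCN1 did (257 FPKM). HP and the neutrophil sum were thus both higher in the knockout in lymph node and thymus. In spleen the neutrophil sum, resting mostly on these genes, was higher and HP, at 20.1 and 10.7 FPKM, was not. The part of neutrophils in the HP values was not tested.

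Fat cells also make haptoglobin. The adipocyte list was higher in 14 of 15 cases and lower in 1 in lymph node (median 4.80), higher in 12 of 14 and lower in 0 in thymus (median 1.40), and 2 each way of 10 in spleen (median -0.36). It summed to 257 and 10240 FPKM in lymph node, 704 and 2169 FPKM in thymus and 352 and 354 FPKM in spleen. Single genes gave most of some sums. These were ADIPOQ in the knockout lymph node (7483 FPKM) and knockout thymus (1376 FPKM), and PPARG in spleen (245 and 230 FPKM). ADIPOQ had 5 and 4 fragments in spleen. At 0 were PCK1, DGAT2 and TUSC5 in wild-type lymph node, UCP3 and TUSC5 in wild-type spleen, and PLIN1, LEP, DGAT2, CIDEA and TUSC5 in knockout spleen. The hormone gene ADIPOQ was 256-fold higher in the knockout lymph node (159.7 to 439.9) and 10.6-fold higher in the knockout thymus (8.46 to 13.5). HP had its larger ratio in thymus and ADIPOQ in lymph node. The part of fat cells in these values was not tested.

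The liver list holds 14 genes of the tables and was read as a check on plasma proteins and liver RNA. Its sums were 118 and 280 FPKM in lymph node, 366 and 378 FPKM in spleen, and 42.3 and 42.5 FPKM in thymus, with the lipoprotein gene APOA1 giving most of it (112 and 264, 350.3 and 374, and 28.7 and 34.9 FPKM). Between 5 and 10 of the 14 genes were at 0 in each library, APOA2 in every library. Albumin, ALB, had 0 and 5 fragments in lymph node, 10 and 0 in spleen and 8 and 2 in thymus. The list was higher in 3 of 4 measured cases in lymph node (median 1.04), lower in 4 of 5 in spleen (median -1.40), and higher in 2 and lower in 1 of 6 in thymus (median 0.19). Over all measured genes 15.3% were higher in lymph node, 10.0% lower in spleen, and 15.2% higher and 10.9% lower in thymus. Few genes were measured and several calls had few fragments, such as SERPINC1 (0 and 4) in lymph node and APOC3 (1 and 0) in spleen. Counting intervals excluded equal levels for 1 call in lymph node, 3 in spleen and 1 in thymus. ALB thus had at most 10 fragments in any of the 6 libraries, while APOA1 reached 374 FPKM in knockout spleen. The part of liver RNA in the HP, CP and TF values was not tested.

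**Figure D3:**
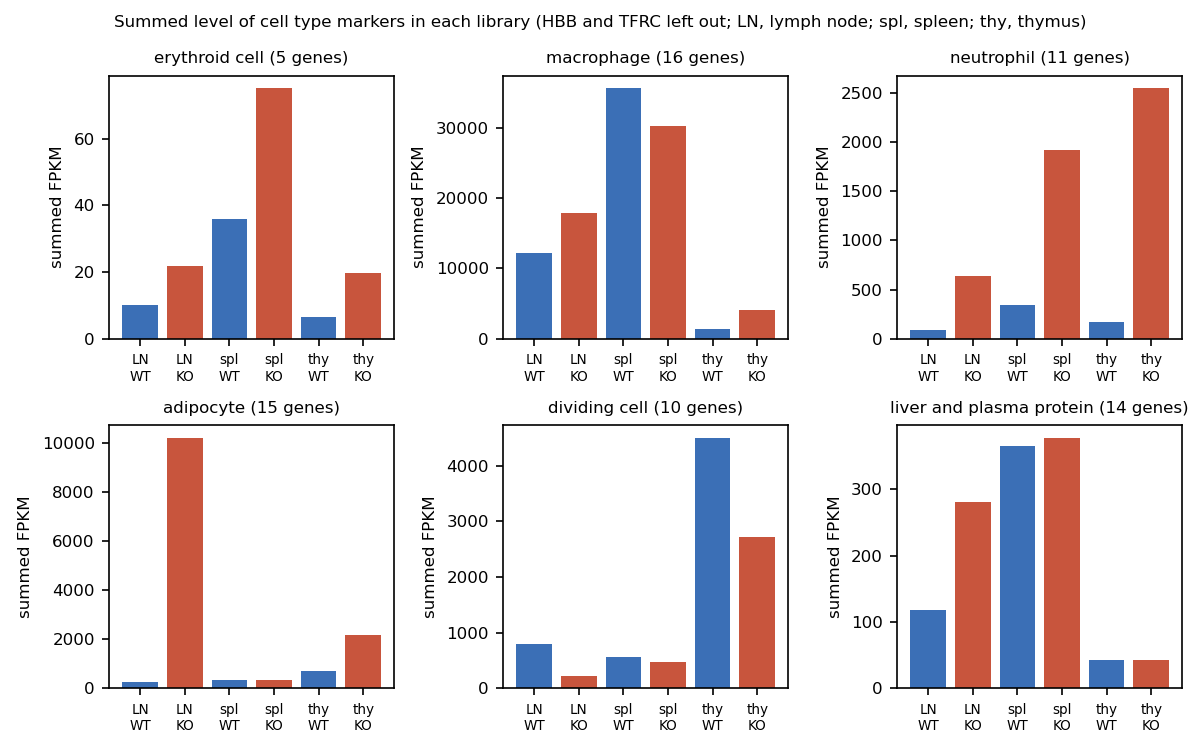
Summed FPKM of the erythroid, macrophage, neutrophil, adipocyte, dividing-cell and liver lists in the 6 libraries, without HBB and TFRC; wild type in blue, knockout in red, bars from 0. The adipocyte sum is highest in the knockout lymph node (10240 FPKM), the neutrophil sum in the knockout thymus (2549 FPKM) and the dividing-cell sum in the wild-type thymus (4504 FPKM).

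CP, the copper carrier and iron oxidase on chromosome 13 (89396713 to 89463540), stood at 0.293 and 45.9 FPKM in lymph node. Its levels were 119 and 384 FPKM in spleen, and 0.372 and 0.99974 FPKM in thymus. Spleen was highest in either genotype and lymph node had the largest ratio, its wild-type library being the lowest of the 6 and its knockout library the third. Thymus and wild-type lymph node, the 3 lowest libraries, had overlapping counting intervals. CP was 157-fold higher in the knockout lymph node, where the wide interval (53.3 to 762) reflects 3 fragments in wild type against 491. Its log2 ratio of 5.18 ranked 23 from the highest of 2910 genes. In spleen it was 3.22-fold higher (3.03 to 3.43; 1253 and 4718 fragments). In thymus 4 and 11 fragments gave a ratio of 2.69 with an interval that includes equal levels (0.796 to 11.6). The knockout value lay just under the minimum of 1 FPKM, and scaled counts, which put it above, gave log2 ratios of 1.03 to 1.12.

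The other copper genes were few in the tables, 8 besides CP. Counting CP, the copper list had 3 of 8 higher and 0 lower in lymph node (median 0.34). It had 2 of 8 and 0 in spleen (median 0.51), and 2 of 7 and 0 in thymus (median 0.36). Over all measured genes 15.3, 8.88 and 15.2% were called higher in these tissues, and 10.3, 10.0 and 10.9% lower. CP is among the higher genes in lymph node and spleen. Without CP the medians were 0.22, 0.42 and 0.36. The zinc- and copper-binding metallothionein MT1A had 0 and 92 fragments in lymph node, at least 29.3-fold higher against a floor of 3 fragments per library (23.4-fold by the lower limit of the counting interval). It had 0 and 37 in thymus, at least 12-fold higher against the same floor (9.31-fold by the lower limit). In spleen MT1A had 0 and 1 fragments. The copper enzyme LOX, which cross-links collagen, was 4.59-fold higher in lymph node (3.72 to 5.70) and 1.67-fold lower in spleen, short of a call there. The copper transporter family gene SLC31A2 was 2.06-fold higher in thymus (1.65 to 2.57). CP and MT1A were both higher in the knockout lymph node, the library with the largest adipocyte sum. In spleen the adipocyte sums were 352 and 354 FPKM beside the 3.22-fold higher CP. Most of the sum in each spleen library was the single gene PPARG (245 and 230 FPKM). The part of fat cells in the CP and MT1A values was not tested.

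TF, the plasma iron carrier, stood at 1.74 and 0.605 FPKM in lymph node, 43.4 and 6.06 FPKM in spleen, and 0.151 and 0.295 FPKM in thymus. Wild-type spleen stood apart from the other 5 libraries, and the 4 lymph node and thymus libraries had overlapping intervals from each to the next. TF was 7.13-fold lower in the knockout spleen (5.21 to 9.97; 281 and 46 fragments), with a log2 ratio of -2.65 that ranked 42 from the lowest of 2849 genes. In lymph node 11 and 4 fragments gave a ratio of 0.348 (0.0808 to 1.17), and thymus had 1 and 2 fragments. Spleen TF was lower while CP was 3.22-fold higher in the same pair of libraries. The annotation has 2 entries under the symbol TF on chromosome 13, at 74862502 to 74907059 and 74930655 to 74970599. The tables have 1 row of that name and do not say which entry it holds, so the locus behind these values is uncertain.

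TFRC, which brings transferrin into cells (chromosome 13, 133976765 to 133997554), had the narrowest range of the 6 genes, 5.44-fold. It stood at 78.7 and 36.6 FPKM in lymph node, 60.2 and 72.3 FPKM in spleen, and 199 and 140 FPKM in thymus. Thymus was highest in either genotype, and of neighbours in the order the wild-type lymph node and knockout spleen had overlapping intervals. TFRC was 2.15-fold lower in the knockout lymph node (1.84 to 2.51; log2 ratio -1.08), close to the threshold. The log2 ratios of -0.51 in thymus and 0.26 in spleen were not called, with ratios of 0.703 (0.646 to 0.764) and 1.21 (1.06 to 1.38).

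Dividing cells carry much transferrin receptor. The dividing-cell list was lower in 8 of 9 measured cases in lymph node (median -2.49), 0 of 9 in spleen (median -0.30) and 1 of 9 in thymus (median -0.55), with 0 higher in each tissue. It summed to 787 and 226 FPKM in lymph node, 564 and 467 FPKM in spleen, and 4504 and 2722 FPKM in thymus. The mitotic kinase CDK1 was 13.4-fold lower in lymph node, and the replication clamp PCNA in thymus had a log2 ratio of -1.44. TYMS was listed at 0 in all 6 libraries. TFRC and the dividing-cell sum were both highest in wild-type thymus, second in knockout thymus and lowest in knockout lymph node. In spleen TFRC stood at 60.2 and 72.3 FPKM beside sums of 564 and 467 FPKM. The part of dividing cells in the TFRC values was not tested.

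FTL, the ferritin light chain (chromosome 6, 54231121 to 54232756), stood at 4055 and 10240.3 FPKM in lymph node, 10766 and 36050.5 FPKM in spleen, and 4615 and 10182 FPKM in thymus. Knockout spleen stood apart from the other 5 libraries, and the knockout lymph node and knockout thymus had overlapping intervals. FTL was 2.55-fold higher in the knockout lymph node (2.49 to 2.61), 3.39-fold in spleen (3.34 to 3.44) and 2.21-fold in thymus (2.16 to 2.26), with log2 ratios of 1.34, 1.74 and 1.14. It held 0.467 and 1.18% of the fragments of listed genes in lymph node, 1.17 and 3.84% in spleen, and 0.421 and 1.01% in thymus. By fragments it ranked 26 and 5 in lymph node, 7 and 1 in spleen, and 33 and 5 in thymus.

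The heavy chain FTH1, which oxidises the iron that ferritin takes in, stood at 1976 and 6152 FPKM in lymph node, 5273 and 29040.1 FPKM in spleen, and 2828 and 5524 FPKM in thymus. FTH1 was 3.14-fold higher in lymph node (3.03 to 3.26), 5.59-fold in spleen (5.47 to 5.71) and 1.95-fold in thymus (1.89 to 2.02), the last short of a call at a log2 ratio of 0.97. The FTL level was 2.05 times the FTH1 level in wild-type lymph node (1.97 to 2.13) and 1.67 times in the knockout (1.63 to 1.70). In spleen it was 2.04 (1.99 to 2.09) and 1.24 times (1.23 to 1.25). In thymus the ratio went the other way, from 1.63 (1.58 to 1.69) to 1.84 (1.80 to 1.89). Ferritin genes have processed copies in mammalian genomes, so both rows are uncertain where the counting could split fragments.

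**Figure D4:**
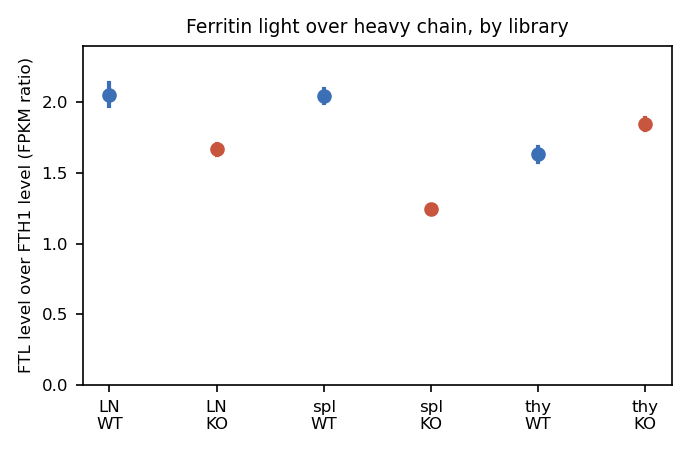
FTL level over FTH1 level (ratio of FPKM, axis from 0) in each library, wild type in blue and knockout in red, with 95% counting intervals. Knockout spleen is lowest at 1.24 and wild-type lymph node and wild-type spleen are highest at 2.05 and 2.04.

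Macrophages hold much ferritin. The macrophage list was higher in 4 of 13 measured cases and lower in 0 in lymph node (median 0.60), 4 and 2 of 13 in spleen (median -0.03), and 10 and 1 of 13 in thymus (median 1.31). It summed to 12230 and 17840 FPKM in lymph node, 35610 and 30290 FPKM in spleen, and 1438 and 4055 FPKM in thymus. In spleen the scavenger receptor MSR1 and the sialic acid receptor SIGLEC-1 had log2 ratios of -2.80 and -3.69, and the complement receptor VSIG4 2.58. The spleen sum rested mostly on the complement genes C1QA (11563 and 8154 FPKM) and C1QC (14988 and 11959 FPKM). Without them it was 9059 and 10180 FPKM, so the direction of the sum there depends on these 2 genes. CD163, the receptor that takes up complexes of haptoglobin and haemoglobin, the haem oxygenase HMOX1 and the protease CTSD were listed at 0 in all 6 libraries, spleen included. Such a 0 may be a missing estimate and is not read as absent expression. The part of macrophages in the FTL values was not tested.

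The 6 lists for iron, haem and copper hold 38 genes of the tables besides HBB, HP, CP, TF, TFRC and FTL. In lymph node 7 of the 31 genes measured were called higher and 1 lower, 22.6 and 3.23%, in spleen 4 and 2 of 32 (12.5 and 6.25%), and in thymus 6 and 2 of 32 (18.8 and 6.25%). Over all measured genes the shares called higher and lower were 15.3 and 10.3% in lymph node, 8.88 and 10.0% in spleen, and 15.2 and 10.9% in thymus. Of the calls in the 3 tissues among the 38 genes, 3, 2 and 3 rested on 9 or fewer fragments in both libraries. The genes within the threshold numbered 23, 26 and 24, or 74.2, 81.2 and 75%, near the 74.4, 81.1 and 73.9% of all measured genes. Medians were 0.14, 0.06 and 0.21.

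Counted with the genes of the set they contain, the iron uptake and export list was higher in 2 of 6 cases and lower in 1 in lymph node (median 0.25), 2 and 2 of 7 in spleen (median -0.68), and 2 and 0 of 6 in thymus (median 0.80). The metal pump SLC11A1, which moves iron out of phagosomes, was 3.10-fold higher in the knockout spleen (2.37 to 4.09; 70 and 253 fragments). LCN2, which binds the iron carriers of bacteria, was 2.49-fold higher in lymph node (1.34 to 4.86) and 3.34-fold lower in spleen. Without TFRC and TF the medians of this list were 0.65, -0.68 and 0.85. The storage and regulation list was higher in 3 and lower in 1 of 7 in lymph node (median 0.25), 2 and 0 of 6 in spleen (median 0.14), and 2 and 1 of 7 in thymus (median 0.30). BMP6, a signal that raises hepcidin, was 4.42-fold higher in lymph node (2.03 to 11.0; 8 and 37 fragments) and had 1 and 10 fragments in thymus. The hepcidin gene HAMP had 2 and 0 fragments in lymph node, 0 and 0 in spleen and 5 and 0 in thymus. Without FTL the medians of the storage and regulation list were 0.09, -0.17 and 0.19.

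The globin and haem synthesis list was higher in 2 and lower in 0 of 8 in lymph node (median 0.27), 0 and 1 of 8 in spleen (median 0.26), and 1 and 1 of 8 in thymus (median 0.06). All of these calls were HBB or HBE1. Without HBB the medians were 0.10, 0.33 and 0.007. The clearance list was higher in 1 of 4 in lymph node (median 0.38), lower in 1 of 5 in spleen (median -0.40) and higher in 2 of 4 in thymus (median 0.77), the latter HP and the haem transporter family gene FLVCR2 (2.93-fold, 1.80 to 4.92). The spleen call was haemopexin HPX on 6 and 0 fragments. Without HP the medians of the clearance list were 0.139, -0.185 and 0.304. The iron-sulfur cluster list had 0 calls among 4 genes in each tissue, with medians of -0.06, -0.01 and -0.18. For its gene FDX1 FPKM and fragments disagreed. FDX1 had 837 and 782 FPKM on 18 and 34 fragments in lymph node, and 417 and 214 FPKM on 21 and 25 in spleen. The list of hypoxia and inflammation genes had VEGFA higher and HIF1A lower of 9 in lymph node (median 0.13), IL6R lower of 9 in spleen (median 0.01) and 0 of 8 called in thymus (median -0.05). EPAS1 of that list had 110 and 106 FPKM in thymus on only 1 and 1 fragments. HIF1A, the oxygen-sensing factor that acts on the TFRC, TF and CP genes, was 2.21-fold lower in the knockout lymph node (log2 ratio -1.14).

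**Figure D5:**
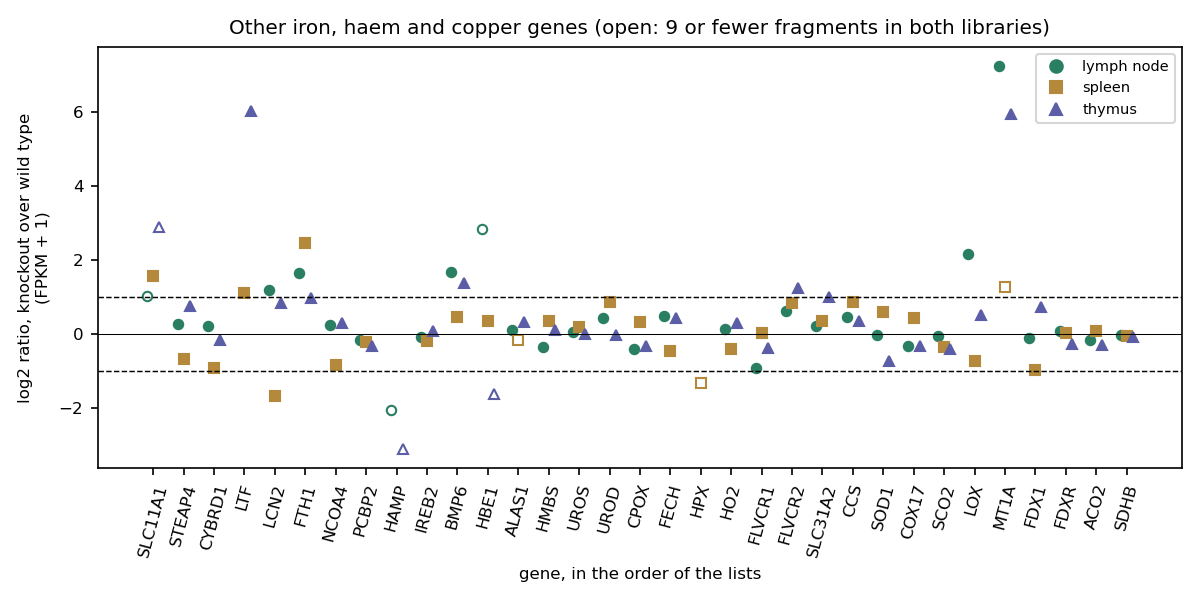
Log2 ratios, knockout over wild type (FPKM + 1), for the other measured genes of the iron, haem and copper lists, with circles for lymph node, squares for spleen and triangles for thymus; dashed lines mark the threshold of 1. Open symbols rest on 9 or fewer fragments in both libraries; the filled symbols above 2 are MT1A in lymph node and thymus, LTF in thymus, FTH1 in spleen and LOX in lymph node.

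For each gene the closest others were sought by distance over the 3 log2 ratios, among 2370 genes with at least 5 FPKM in a library of every tissue (2371 for CP and TF, which do not meet that minimum). For FTL they were DRAM1 (1.18, 1.54 and 0.90 in lymph node, spleen and thymus; distance 0.352) and NKG7 (1.17, 1.42 and 1.22; distance 0.376). The closest to TFRC were LOC595122 (-1.06, 0.27 and -0.65; distance 0.148) and ITGB2 (-0.98, 0.40 and -0.56; distance 0.183). HBB lay nearest to PTF-BETA (3.82, -1.61 and 2.63; distance 0.643) and CDO1 (3.20, -1.29 and 2.47; distance 0.981). TF lay nearest to THY1 (-1.21, -2.92 and -0.18; distance 0.618) and C4BPA (-0.34, -2.31 and 0.47; distance 0.630). The nearest genes to HP and CP lay further off. GHR was at a distance of 1.42 and SPINK4 at 1.52 from HP, and PC at 1.37 and PTGER3 at 1.66 from CP. TF had 11 and 4 fragments in lymph node and 1 and 2 in thymus, and CP had 4 and 11 in thymus. The distances from TF and CP are therefore uncertain.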

How the data were processed

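Stranded libraries were prepared from column-purified total RNA, per the labels' protocols. Per the submitters' processing notes, FastQC 0.11.9, Trimmomatic 0.39, STAR 2.7.9a, Cufflinks 2.2.1 and the build Sscrofa11.1 were used; settings, annotation and the strand option of the counting were not given in the sources. The authors deposited 3 tables of FPKM, 1 per tissue, and 3 tables of estimated counts of fragments, which hold 1 factor per library (0.925 to 1.08, read from the values, of which 97.0 to 99.2% above 0 were whole within 0.02 after division). Counts were divided by this factor and rounded. Totals cover only the listed genes and are not library depth, and FPKM per fragment of the 6 genes varied at most 1.23-fold between libraries.

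Within a tissue 1 library stands against 1, with no test or p-value, and a fit of genotype across the 3 tissues was not made, since the 6 genes were chosen for their differences. Intervals cover counting error only. The 6 genes, the 13 gene lists and the tests were chosen with earlier results of these data known. Named are the 6 genes, up to 3 called genes with the largest ratio per list and tissue, and the 2 nearest genes by ratio. FTH1 and HBE1 in all libraries, values of other list genes at 0, ALB in lymph node and thymus, APOA1, C1QA, C1QC, LTF in lymph node, the tissue and genotype checks (CCL25, PTCRA, CCL21, PROX1, MS4A1, RAG2) and ratios between genes within a library were chosen after values were seen. The same holds for PPARG, FCN1, MMP9, FDX1 and EPAS1. Coordinates and names come from the RefSeq table of Sscrofa11.1, in which all 6 symbols were found. Calculations were tested on simulated counts. Alternatives were counts scaled to their total, with TMM factors of edgeR 4.0.16 or size factors of DESeq2 1.42.0, pseudocounts of 0.1 and 5, no minimum, a minimum of 5 FPKM, median centring, and calls that also needed the counting interval. After seeing the data, a minimum of more than 9 fragments was added. Python 3.11.15, numpy 2.4.6, pandas 2.3.3, scipy 1.17.1 and R 4.3.3 were used.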

Additional observations from a re-analysis of the deposited data

Results flagged for a closer look

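HBB, HP and TFRC had counting intervals that exclude equal levels in opposite directions in spleen and in the other tissues, with 1 library per genotype and tissue, and the difference between tissues was not tested. The log2 ratio of HBB was 4.16 in lymph node, -1.13 in spleen and 2.39 in thymus, so lymph node minus spleen was 5.29 and spleen minus thymus -3.52. For HP the ratios were 3.05, -0.85 and 4.28, with differences of 3.89 and -5.12. TFRC had -1.08, 0.26 and -0.51, with differences of -1.35 and 0.767, and only its lymph node value met the call threshold.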

How the results depend on the processing

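Of 161 recomputed log2 ratios of the 6 genes, 154 shifted by less than the distance from the centre to the edge of their counting interval, and 0 of those called changed sign. The number of genes of the set called lower in lymph node went from 1 to 2 with counts scaled to their total, with TMM factors, with DESeq2 size factors and with a pseudocount of 0.1, the second being TF on 11 and 4 fragments. With a pseudocount of 5 the genes called over the whole table numbered 166 higher and 160 lower in spleen, against 253 and 286, and 272 and 183 in thymus, against 441 and 317. Counts scaled to the total of listed genes put 2 of 15 pairs of libraries in another order for FTL. That scaling moved the median of all genes in thymus to 0.116 on the log2 scale. With the 3 count scalings CP in thymus passed the minimum and the threshold, at 1.12, 1.03 and 1.03. CP in lymph node ranged from 3.26 to 6.87 over the alternatives and TF in spleen from -2.82 to -2.13. A fit of genotype over the 3 tissues, with tissue as a block, was not made, since the genes were chosen for these differences. No group holds a second replicate that could be left out. Values on 9 or fewer fragments (CP in lymph node and TF in lymph node, and both in thymus) are limited by depth in at least 1 library.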

Other observations

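In all, 774 of 4122 listed genes (18.8%) were at 0 in all 6 libraries, and 9 of 119 genes of the lists were among them. These were APOA2, ATOX1, CD163, CTSD, HMOX1, IL6, MB, SOCS3 and TYMS. Among them are genes that most cells use, the copper chaperone ATOX1, the lysosomal protease CTSD and the nucleotide enzyme TYMS, and a value of 0 in these tables is therefore given as listed.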
